A study of Mus musculus with 12 samples.

Results

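The genes described here are the translation initiation factors named in the count tables, that is, every gene symbol that begins with Eif1 to Eif6, without the eIF2 kinases (Eif2ak genes) and without Eif2s3x and Eif2s3y, which lie on the sex chromosomes. The rule took 52 of the 23337 symbols. Of these, 48 carry symbols of initiation factors, their relatives or their inhibitors. Among the 48, Eif4a3 encodes the helicase of the exon junction complex, and Eif1ad was grouped with eIF1A by its symbol. The other 4 (Eif2c1, Eif2c2, Eif2c3 and Eif2c4) are older symbols of the Argonaute genes Ago1 to Ago4. Their proteins load microRNAs and do not act in initiation. The Argonautes are therefore given separately where the counts allow. Reads were found for 50 of the 52 symbols, and these 50 were tested among 12038 genes. Eif3j and Eif4e1b had 0 counts in all 12 libraries. For Eif3j, an older symbol of Eif3j1, 50.9% of the 50-base stretches of its transcripts also occur in other genes, most often in Eif3j2, so a count of 0 may reflect how shared reads were assigned.

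The libraries were made from regulatory T cells (Treg), with spleen and lymph nodes of 8-week-old C57BL/6 mice as the source. Natural Treg (nTreg) were sorted as CD4+ cells that carry the GFP of FoxP3-cre, and induced Treg (iTreg) were CD4 T cells cultured with IL2 and TGFbeta for 5 days, of which the GFP-positive cells were kept. Each cell type had 3 libraries labelled WT, with the genotype Hrd1 +/flox, and 3 labelled KO, with the genotype Hrd1 flox/flox. Animals of both labels carried FoxP3-cre+-GFP, a Cre driven in cells that express Foxp3, so the WT-labelled cells are no cells with an untouched Hrd1 locus, and no group without Cre was included. Hrd1 (Syvn1 in the files) is an E3 ligase in the membrane of the endoplasmic reticulum and marks misfolded proteins for degradation. Whether each library is its own mouse or culture is not stated in the labels, and p-values reflect spread among libraries, which may be technical.

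Initiation starts when eIF2, bound to GTP and the initiator tRNA, joins the small ribosomal subunit together with eIF1, eIF1A, eIF3 and eIF5, and the guanine nucleotide exchange factor eIF2B recharges eIF2 after each round. The cap of the mRNA is bound by eIF4E, which the scaffold eIF4G joins to the helicase eIF4A, and the 4E-BP proteins (Eif4ebp genes) hold eIF4E back unless the kinase complex mTORC1 phosphorylates them. When kinases such as PERK (Eif2ak3) phosphorylate the alpha subunit of eIF2, most initiation falls while the mRNA of the transcription factor ATF4 is translated, and Eif4ebp1 is a known target gene of ATF4.

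The libraries held 6763458 to 15462894 counts. Of the 6 marker genes of Treg and CD4 T cells, 5 were called lower in iTreg than in nTreg under both labels and Il2ra was called higher. In WT-labelled cells Foxp3 had a mean of 621 CPM in nTreg and 359 CPM in iTreg, Il2ra 838 and 3140 CPM, and Ikzf2 (Helios) was lower in iTreg by 5.42 on the log2 scale. The 6 genes (Foxp3, Il2ra, Ctla4, Ikzf2, Cd4 and Cd3e) summed to between 3800 and 5090 CPM (that is, counts scaled to a common library size with edgeR's TMM factors) in every library, most of it Il2ra in iTreg, and all had reads in each group. The targeted gene Syvn1 went against the label in nTreg, with 73.7, 87.2 and 75.5 CPM under the WT label against 146, 137 and 130 CPM under the KO label, while in iTreg the groups overlapped (61.6 to 101 against 54.6 to 73.1 CPM). These counts take in the whole gene, and the labels do not give the floxed exons, so they neither show nor deny a deletion, and all directions below are those of the labels. Xist, transcribed from the inactive X chromosome, was at 729 CPM in nTreg WT replicate 3 and 483 CPM in nTreg KO replicate 3. It was at 2030 CPM in iTreg WT replicate 2 and at 0.232 CPM or less in the others. The Y-linked gene Ddx3y was at 0 CPM in iTreg WT replicate 2 and at 79 to 262 CPM in all others. In nTreg replicate 3 it was at 103 CPM (WT label) and 141 CPM (KO label), alongside the high Xist. Whether these nTreg libraries pool mice of both sexes was not tested. Summed myeloid markers (10 genes) were at 53.8 to 661 CPM in nTreg, highest in KO replicate 2 and next in WT replicate 2 (296 CPM), and at 5.11 to 7.08 CPM in iTreg, where 4 of the 10 were at 0 in each group, Lyz2, C1qa and C1qc in both. B cell markers (6 genes) summed to 28.1 to 33.7 CPM in nTreg WT, 16.5 to 17.2 in nTreg KO and 0.528 to 3.01 in iTreg.

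In nTreg, 2 initiation factors rose under the KO label, Eif1a and Eif2s2, and no factor fell. These 2 of 50 members (4%) passed edgeR's quasi-likelihood test at a Benjamini-Hochberg adjusted p under 0.05, where 2.53% of all 12038 genes did (2.18% higher and 0.341% lower). Libraries that share a number deviated together within each cell type, so a second fit, which blocks on the replicate number, is given beside it. With the block 6 of 50 members passed, Eif4ebp1, Eif3c, Eif3i and Eif6 in addition, all 6 higher under the KO label, against 9% of all genes (5.36% higher and 3.64% lower). The median log2 fold change of the members was 0.14, against 0.01 for all genes, and 39 of the 50 were above 0, against 51.7% of all genes. All 3 KO-labelled libraries lay above all 3 WT-labelled ones for 16 members (32%, against 15.7% of all genes) and below them for 3 members (6%, against 14.1%). The 3 were Eif4g3, Eif4enif1 and Eif2c1, and each missed the threshold. The B cell markers differed between these groups and the myeloid markers between the libraries (values above). Their part in these differences was not tested.

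Eif4ebp1 (chr8:27260329-27276674, mm10), which encodes the 4E-BP1 protein, had the largest difference of any member in nTreg. It measured 8.42, 5.24 and 8.93 CPM in the WT-labelled libraries and 21.9, 25.0 and 36.1 CPM in the KO-labelled ones. The groups did not overlap. The fold was 3.63 (log2 1.86, SE 0.46, 95% interval 0.86 to 2.87), and it missed the threshold in the fit without the block (edgeR adjusted p = 0.061) and passed with it (log2 1.89, SE 0.19, edgeR adjusted p = 0.00036). DESeq2 also called it (log2 1.84, adjusted p = 0.00054). Its relatives did not pass, with a log2 fold change of 0.06 (95% interval -0.33 to 0.45) for Eif4ebp2 and -0.04 (-0.51 to 0.43) for Eif4ebp3. Of the transcript sequence of Eif4ebp3, 65.5% in 50-base stretches is shared with a read-through gene model, so its counts are uncertain. Eif4enif1, whose protein carries eIF4E into the nucleus, was at -0.18 (-0.43 to 0.07).

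**Figure D1:**
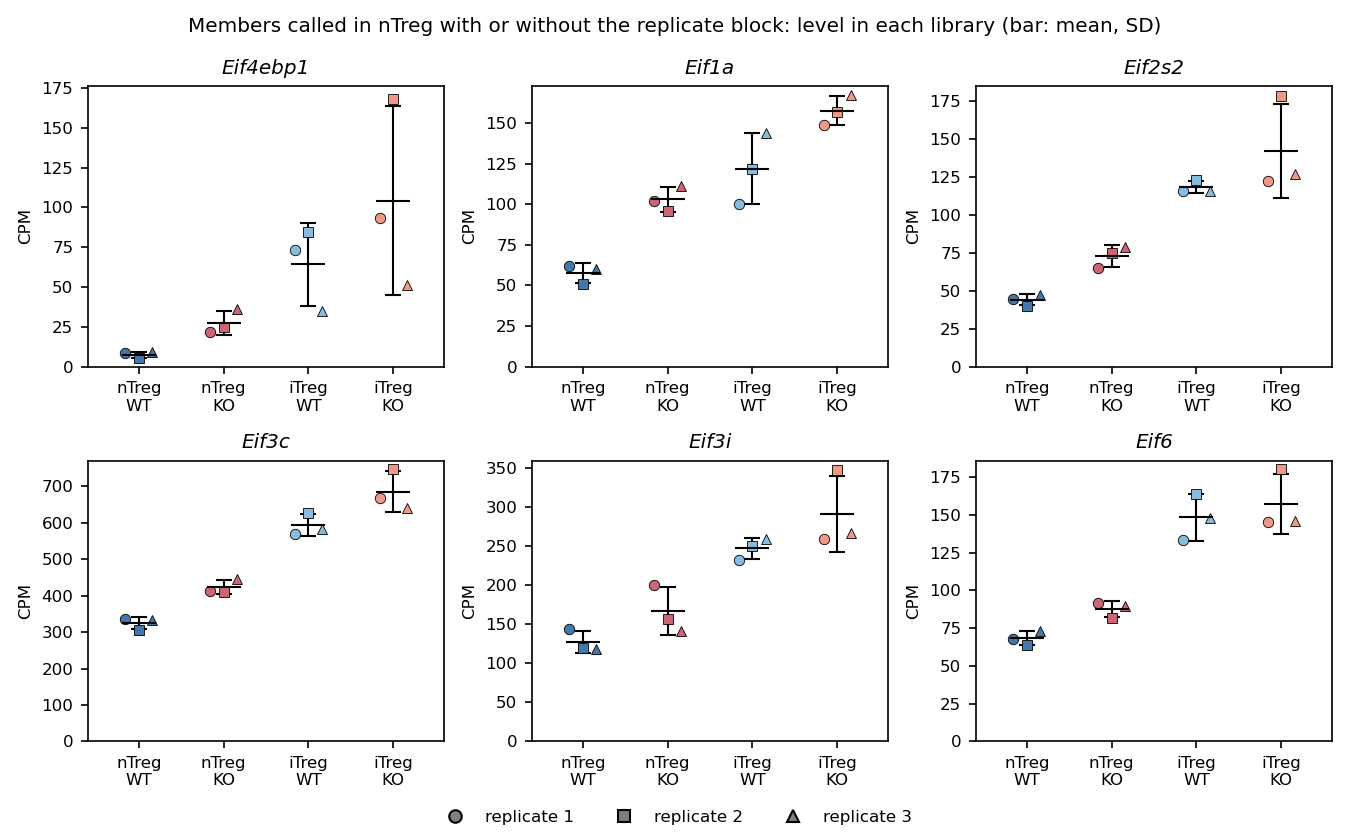
Level of 6 initiation factor genes in each of the 12 libraries, in CPM on a linear axis from 0, by group; markers give the replicate number and the black bars the mean and SD (n = 3). Eif4ebp1 ran from 5.24 to 8.93 CPM in WT-labelled and from 21.9 to 36.1 CPM in KO-labelled nTreg, and was higher still, but spread more widely, in iTreg.

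Eif1a encodes an isoform of eIF1A, which binds the aminoacyl site of the small subunit during scanning. Its nTreg levels were 62.3, 51.0 and 60.3 CPM (WT label) against 102, 96.0 and 111 CPM (KO label), with no overlap. The fold was 1.78 (log2 0.83, SE 0.13, edgeR adjusted p = 0.0039). It passed when any 1 library was left out (edgeR adjusted p up to 0.032), but not without the 3 libraries with Xist (0.81, adjusted p = 0.14) or without both nTreg libraries numbered 2, which held the most myeloid reads (0.80, adjusted p = 0.069). The X-linked isoform Eif1ax differed by 0.17 (95% interval -0.12 to 0.45) and Eif1ad by 0.20, and neither passed. Per kb of exon, the mean ratio of Eif1a to Eif1ax was 1.49 ± 0.21 (SD, n = 3) in WT-labelled and 2.36 ± 0.273 (SD, n = 3) in KO-labelled nTreg, and the ranges of the libraries (1.25 to 1.63 against 2.10 to 2.64) did not overlap.

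Eif2s2 (chr2:154871410-154892935) encodes the beta subunit of eIF2, which binds the initiator tRNA and eIF5. In nTreg the WT-labelled libraries were at 44.6, 40.2 and 47.4 CPM, all below the KO-labelled ones at 64.9, 74.6 and 79.1 CPM. The fold was 1.65 (log2 0.72, SE 0.14, edgeR adjusted p = 0.016). This call was lost when WT replicate 1 or 2 or KO replicate 2 or 3 was left out (log2 0.66 to 0.73, edgeR adjusted p 0.067 to 0.099), without the 3 libraries with Xist (0.72, adjusted p = 0.26) and without both nTreg libraries numbered 2 (0.65, adjusted p = 0.30). Eif2s1, the alpha subunit that the eIF2 kinases phosphorylate, had a log2 fold change of 0.14 (95% interval -0.10 to 0.39) and did not pass. Per kb of exon, Eif2s1 stood at 2.60 ± 0.343 times Eif2s2 in WT-labelled and at 1.74 ± 0.286 times in KO-labelled nTreg (SD, n = 3). About 10.3% of the 50-base stretches of Eif2s2 transcripts are shared, most with the gene model Gm9892.

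The 12 measured subunits of eIF3, the scaffold that holds the small subunit and the other factors together, all had a log2 fold change above 0 in nTreg, between 0.08 and 0.38 with a median of 0.18. Without the block edgeR called 0 of the 12, with 3 at an unadjusted p under 0.05, DESeq2 called Eif3c, and with the block edgeR called Eif3c and Eif3i. Eif3c, a core subunit, measured 335, 306 and 334 CPM against 412, 411 and 446 CPM (WT against KO label, log2 0.38, SE 0.09, edgeR adjusted p = 0.058, and 0.0079 with the block). Every KO-labelled library was above every WT-labelled one. Eif3i, which sits in a peripheral module of the complex, measured 144, 120 and 119 against 201, 157 and 142 CPM (log2 0.38, SE 0.15, edgeR adjusted p = 0.28, and 0.036 with the block). The 2 groups overlapped for Eif3i, with KO replicate 3 below WT replicate 1, but in each of the 3 numbered pairs the KO-labelled library was higher. Without KO replicate 1 the log2 fold change of Eif3i was 0.23. Eif3g was at 0.30 (95% interval 0.07 to 0.53) and the remaining 9 subunits were at 0.23 or less.

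Eif6 encodes a factor that keeps the large ribosomal subunit from joining the small one. The WT-labelled nTreg libraries measured 67.9, 64.1 and 73.0 CPM, and those labelled KO, at 91.3, 81.8 and 89.6 CPM, all lay above them. The log2 fold change was 0.36 (SE 0.12, edgeR adjusted p = 0.18, and 0.017 with the block). The folds of Eif6 and Eif3c were 1.28 and 1.30.

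Members of the other factors did not pass in nTreg under either fit. The 5 subunits of eIF2B were at 0.01 to 0.34 on the log2 scale, with Eif2b3, its gamma subunit, the highest (95% interval 0.00 to 0.68). The helicase genes Eif4a1, Eif4a2 and Eif4a3 were at -0.09 to 0.10, the scaffolds Eif4g1, Eif4g2 and Eif4g3 at -0.15 to 0.17, and the cap-binding Eif4e, Eif4e2 and Eif4e3 at -0.02 to 0.23. Eif5, the GTPase activator of eIF2, was at 0.11 (-0.16 to 0.37), and Eif5b, which joins the subunits, at -0.01 (-0.25 to 0.22). Of the 4 Argonaute symbols, Eif2c1, Eif2c2 and Eif2c3 were at -0.20 to -0.28, and Eif2c4, with 6 to 37 counts per library, at 0.73 (-0.39 to 1.85).

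**Figure D2:**
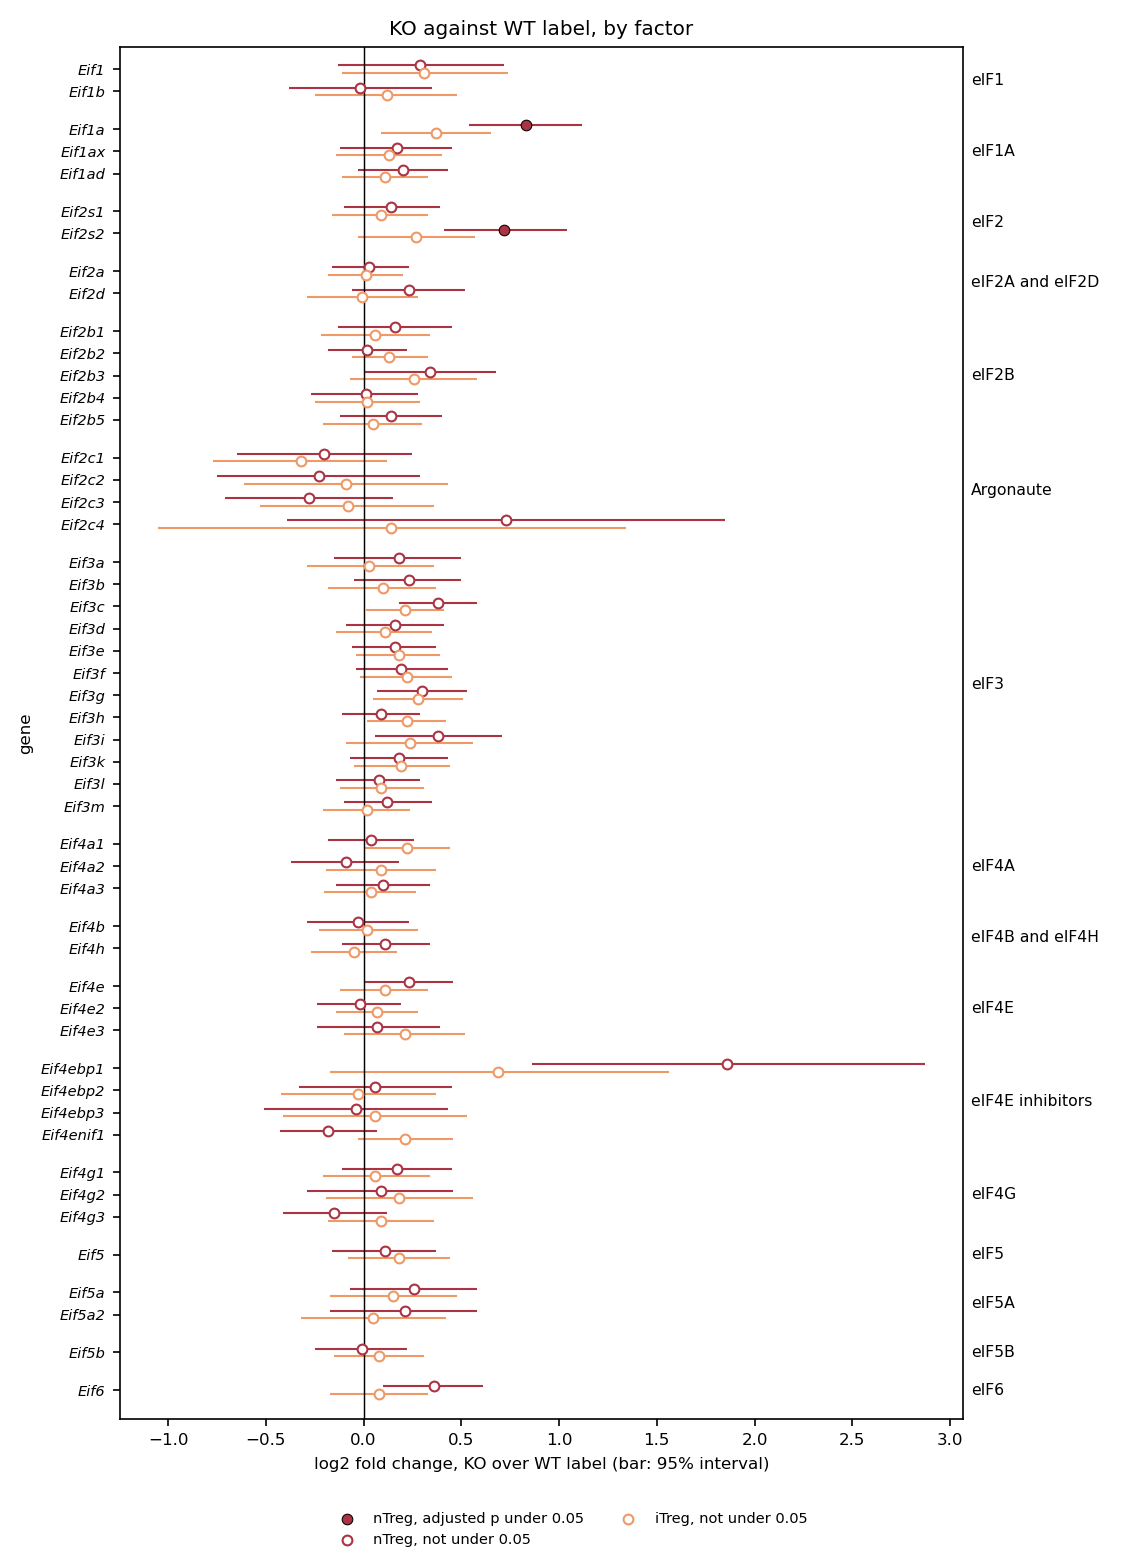
Log2 fold change of KO over WT label for the 50 tested members, grouped by factor, in nTreg (dark red) and iTreg (orange), with 95% intervals; filled points passed edgeR's test at an adjusted p under 0.05 without the block. Only Eif1a and Eif2s2 in nTreg are filled, and Eif4ebp1 lies farthest to the right (1.86 in nTreg, 0.69 in iTreg) with the widest interval but that of Eif2c4.

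In iTreg no initiation factor passed between the labels. edgeR called 0 of 50 members without the block, where 0.183% of all genes were called, and 0 with it, where 0.947% were. Without the block 5 members had an unadjusted p under 0.05 and with it 18, and the share of all genes at that unadjusted p is not given here. DESeq2 called 0, where it called 0.823% of all genes. Of the 50, 44 had a log2 fold change above 0, against 47.0% of all genes, and the median was 0.10, against -0.01. In 7 members all KO-labelled libraries lay above all WT-labelled ones (14%, against 4.68% of all genes), namely Eif1, Eif1a, Eif3c, Eif3e, Eif3f, Eif3h and Eif3i, and in 0 members below them (against 4.95%). The smallest p was that of Eif1a, with 100, 122 and 144 CPM against 149, 157 and 167 CPM (WT against KO label, log2 0.37, SE 0.13, edgeR adjusted p = 0.49). The eIF3 subunits were again all above 0, between 0.02 and 0.28. Eif3h measured 461, 431 and 446 against 517, 540 and 503 CPM (log2 0.22, SE 0.09, edgeR adjusted p = 0.60), and Eif3g 132, 134 and 159 against 153, 189 and 175 CPM (log2 0.28, SE 0.10, edgeR adjusted p = 0.53). Their folds were 1.17 and 1.22. Eif3c stood at 570, 627 and 583 against 668, 748 and 639 CPM, without overlap (log2 0.21, edgeR adjusted p = 0.65). About 20.3% of the 50-base stretches of Eif3h transcripts are shared with other genes.

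Eif4ebp1 differed widely among the iTreg libraries, at 73.1, 84.5 and 35.1 CPM under the WT label and 93.3, 168 and 51.2 CPM under the KO label. The groups overlapped, since both libraries numbered 3 were low and KO replicate 2 was high, while in each numbered pair the KO-labelled library was the higher. The log2 fold change was 0.69 (SE 0.40, edgeR adjusted p = 0.76), and with the block 0.64 (SE 0.14, edgeR adjusted p = 0.078). Without the block it was 0.16 when KO replicate 2 was left out, 0.40 without WT replicate 3 and 1.02 without KO replicate 3. Eif2s2 in iTreg was at 116, 123 and 116 against 122, 178 and 127 CPM, overlapping (log2 0.27, 95% interval -0.03 to 0.57).

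The KO effect in iTreg minus that in nTreg was tested directly. edgeR called 0 of 50 members without the block (0.291% of all genes), with 3 at an unadjusted p under 0.05 (Eif1a, Eif2s2 and Eif4enif1), and DESeq2 called 0 (1.16% of all genes). With the block edgeR called 1, Eif4ebp1, against 1.8% of all genes (1.46% lower). Its KO effect was smaller in iTreg by 1.25 on the log2 scale (-1.25, SE 0.24, edgeR adjusted p = 0.037), and without the block the value was -1.17 (SE 0.61, adjusted p = 0.75). For Eif1a and Eif2s2 the difference was -0.46 each, with edgeR adjusted p of 0.57 and 0.64, so that a smaller effect in iTreg was not shown for them.

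Between the cell types the initiation factors differed far more than between the labels. In WT-labelled libraries edgeR called 39 of 50 members (78%), 35 higher in iTreg and 4 lower, where 65.2% of all genes were called (34.8% higher and 30.4% lower). In KO-labelled libraries it again called 39 of 50, 35 higher and 4 lower, where 61.9% of all genes were called (32.1% higher and 29.8% lower). The members' median log2 fold change was 0.66 and 0.57, against 0.05 and 0.01 for all genes. Their summed counts took 0.968% to 1.11% of a library in nTreg and 1.26% to 1.51% in iTreg, so the ranges did not overlap. iTreg came from culture and nTreg from sorted tissue, and the nTreg libraries held more myeloid and B cell marker reads (values above); these cannot be told apart from the cell type. In bulk RNA, fewer cells of a type and less RNA per cell cannot be told apart either.

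**Figure D3:**
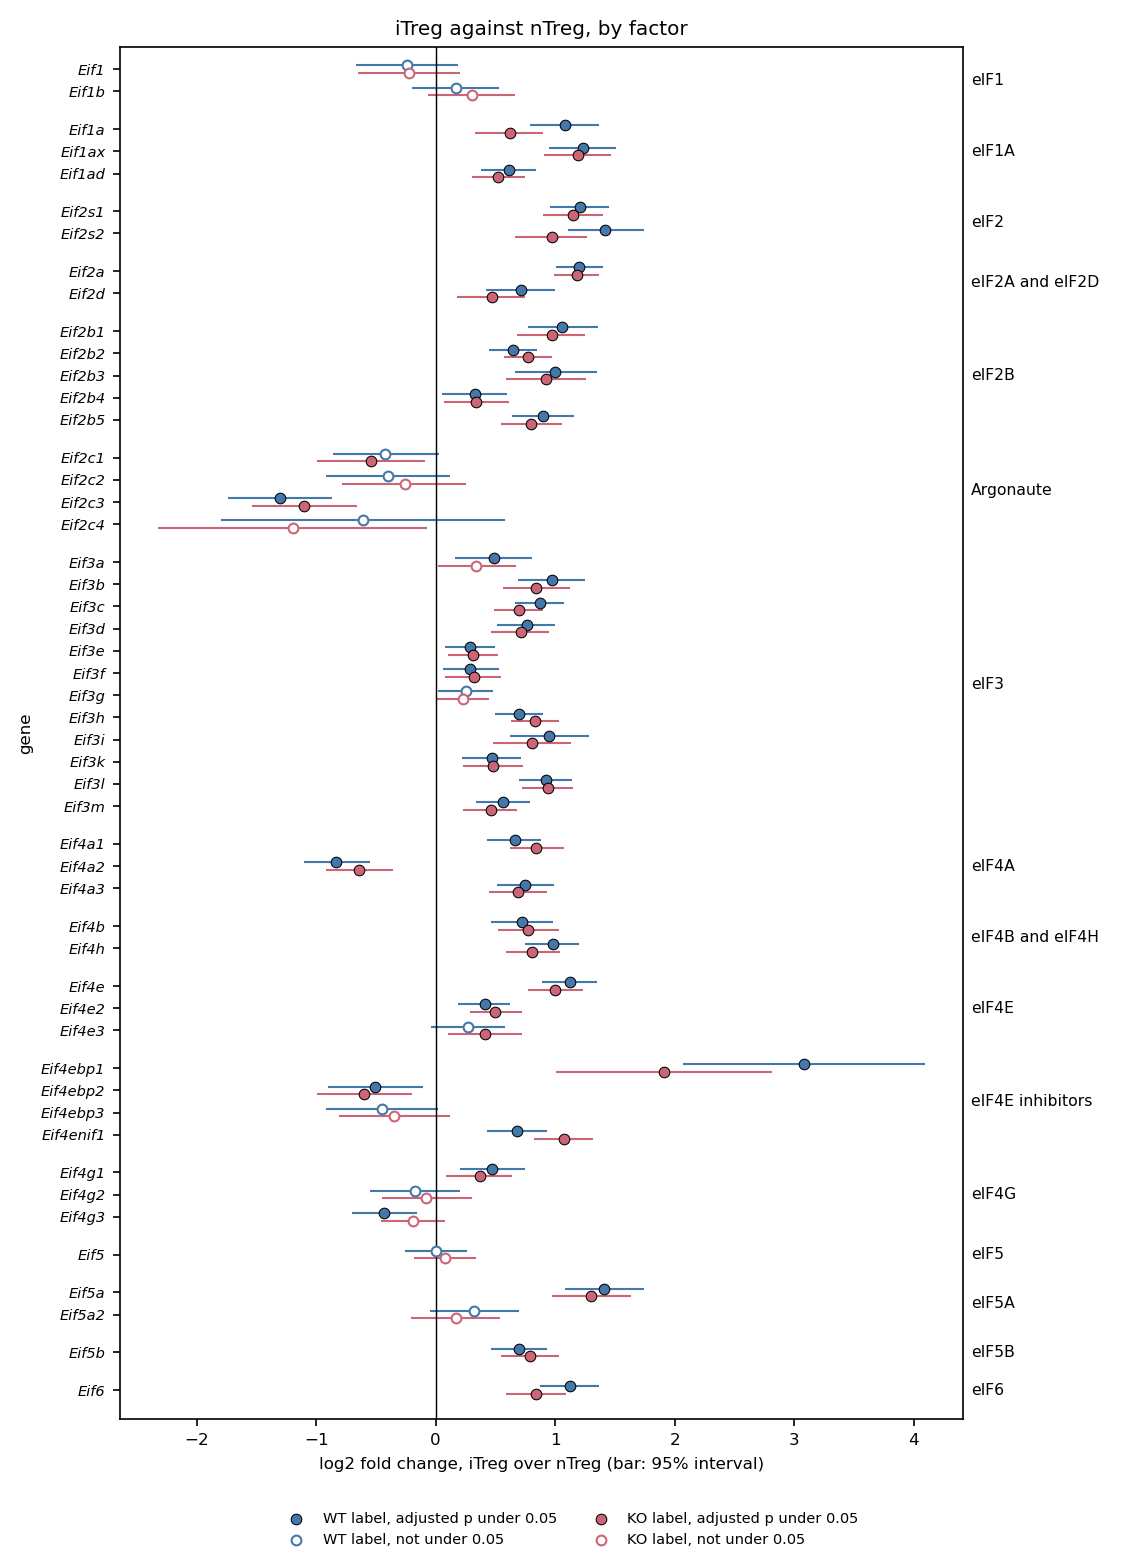
Log2 fold change of iTreg over nTreg for the 50 tested members, grouped by factor, in WT-labelled (blue) and KO-labelled (red) libraries, with 95% intervals; filled points passed edgeR's test at an adjusted p under 0.05. Most members lie right of 0 under both labels, Eif4ebp1 farthest (3.08 and 1.91), and Eif2c3, Eif4a2 and Eif4ebp2 lie left of 0 and are filled under both labels.

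In the fit as reported, the rise took in whole factors. Both measured eIF2 subunits, all 5 eIF2B subunits, the 3 genes grouped with eIF1A, Eif4b and Eif4h (helpers of the helicase), Eif2a and Eif2d, Eif5b and Eif6 were higher in iTreg under both labels, as were 11 of 12 eIF3 subunits under the WT label and 10 of 12 under the KO label. The exceptions among the eIF3 subunits were Eif3g under both labels and Eif3a under the KO label. The Eif2b4 call under the WT label was lost with RLE size factors, by DESeq2 and when the compared libraries alone were fitted. It was also lost when any 1 nTreg WT library or iTreg WT replicate 3 was left out, among other alternatives. Under the KO label it was lost when any 1 nTreg KO library or iTreg KO replicate 2 or 3 was left out, among others. Eif3a lost its WT-label call without iTreg WT replicate 3 and without both nTreg libraries numbered 2. Eif3e and Eif3f also lost their calls in some alternatives under both labels. Eif2s2 had the largest rise after Eif4ebp1 in WT-labelled cells (log2 1.42, SE 0.14, edgeR adjusted p = 4.4e-06), with 116 to 123 CPM in iTreg against 40.2 to 47.4 in nTreg. Eif2s1 rose from 81.8, 87.9 and 80.6 to 173, 206 and 199 CPM (log2 1.21, SE 0.11, edgeR adjusted p = 2.5e-06). Eif2a, whose product can deliver the initiator tRNA without being part of eIF2, went from 71.3 to 73.9 CPM in nTreg to 156 to 182 CPM in iTreg (log2 1.20, SE 0.09, edgeR adjusted p = 3.4e-07). These 3 genes were also higher in KO-labelled iTreg, by 0.97, 1.15 and 1.18 on the log2 scale.

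Eif5a encodes a protein that carries the amino acid hypusine and acts when ribosomes stall. It measured 470, 411 and 418 CPM in WT-labelled nTreg and 975, 1170 and 1310 CPM in WT-labelled iTreg. The rise was 2.66-fold (log2 1.41, SE 0.15, edgeR adjusted p = 7.5e-06) under the WT label and 2.47-fold (log2 1.30, SE 0.15, edgeR adjusted p = 1.7e-05) under the KO label. Its relative Eif5a2 did not pass (0.32 and 0.17), and per kb of exon Eif5a was 38.2 ± 6.17 times Eif5a2 in WT-labelled nTreg and 81.0 ± 8.77 times in WT-labelled iTreg (SD, n = 3). Eif1ax went from 48.4, 51.7 and 47.9 to 108, 118 and 121 CPM under the WT label (log2 1.23, SE 0.13, edgeR adjusted p = 6.2e-06) and rose by 1.19 under the KO label. Eif1a rose as well, by 1.08 under the WT label and 0.62 under the KO label, where its nTreg level was already higher.

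Eif4a1 and Eif4a2 encode near-identical helicases of the cap complex and moved in opposite directions. Eif4a1 measured 162, 155 and 141 CPM in WT-labelled nTreg and 227, 232 and 264 CPM in WT-labelled iTreg (log2 0.66, SE 0.10, edgeR adjusted p = 0.00014). Eif4a2 fell from 606, 577 and 530 to 313, 295 and 359 CPM (log2 -0.83, SE 0.13, edgeR adjusted p = 0.00013). The KO-labelled libraries gave 0.84 and -0.64. Per kb of exon, the level of Eif4a1 was 0.329 ± 0.0016 of that of Eif4a2 in WT-labelled nTreg and 0.923 ± 0.0404 in WT-labelled iTreg (SD, n = 3), and in KO-labelled cells 0.363 ± 0.0308 and 1.02 ± 0.163. Over all libraries the ratio ran from 0.328 to 0.387 in nTreg and was 0.835 or more in iTreg. Of the 50-base stretches of Eif4a1 transcripts 28.4% are shared, most with the pseudogene Eif4a-ps4, and of Eif4a2 13.6%, so part of each count depends on how shared reads were assigned. Eif4a3, the helicase of the exon junction complex, rose by 0.75 and 0.69.

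**Figure D4:**
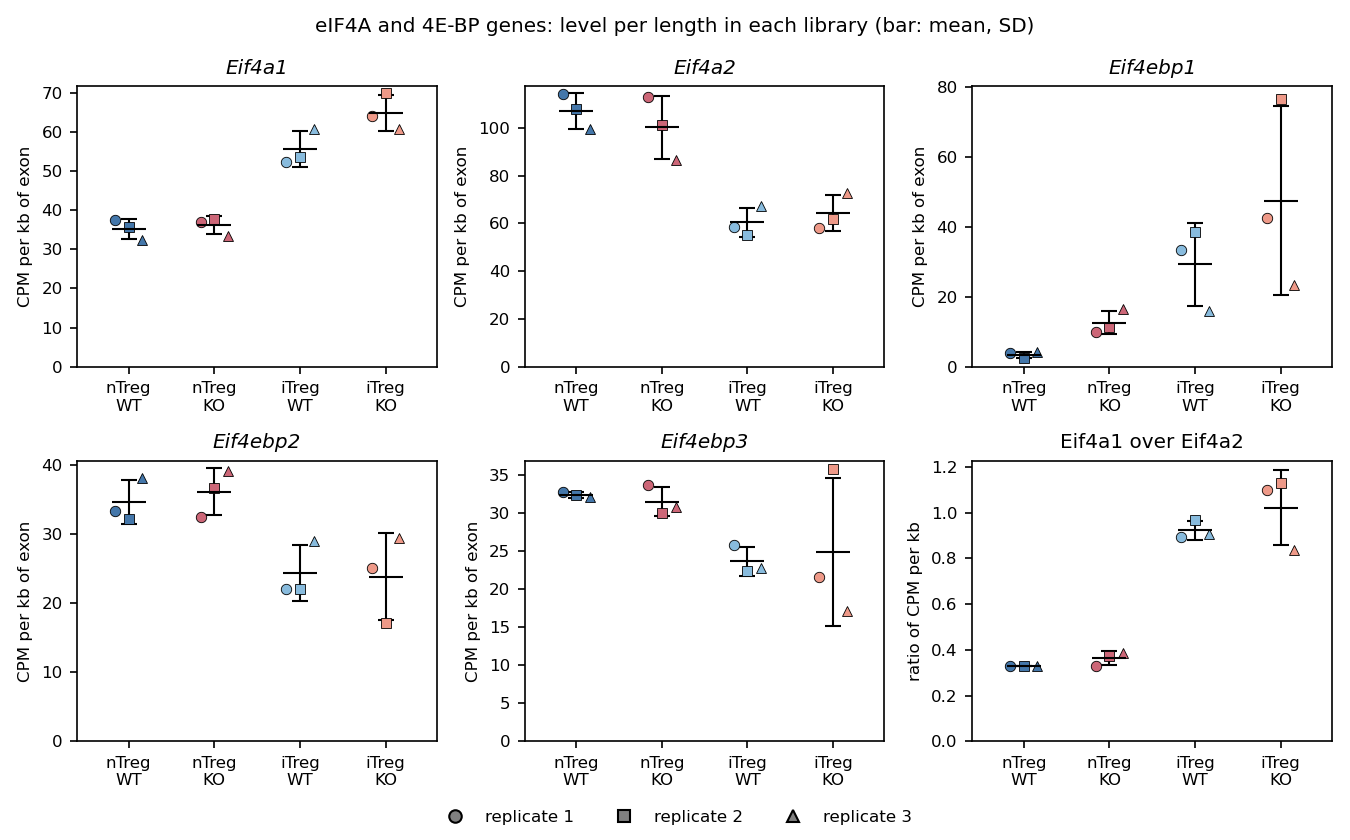
Level per kb of exon (CPM per kb, linear axes from 0) of 2 eIF4A and 3 4E-BP genes in each of the 12 libraries, and the ratio of Eif4a1 to Eif4a2; markers give the replicate number and the black bars the mean and SD (n = 3). Eif4a1 was higher and Eif4a2 lower in iTreg than in nTreg, so that their ratio went from at most 0.387 in nTreg to at least 0.835 in iTreg.

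The bases before the start of Eif4a1 and Eif4a2 are shown because these relatives moved apart between the cell types, and those of Eif2s2 because it was higher in nTreg with the KO label and higher in iTreg than in nTreg. They come from RefSeq (GRCm38.p6) and end before the start that GENCODE M21 gives, which is also the RefSeq start of Eif4a1 and lies upstream of the RefSeq start of Eif4a2 and Eif2s2. They lie at chr11:69672424-69672673 (minus strand) for Eif4a1, chr16:23107218-23107443 (plus strand) for Eif4a2 and chr2:154892936-154893156 (minus strand) for Eif2s2. Capitals mark CACGTG, the E-box that factors such as MYC and USF bind.
Eif4a1: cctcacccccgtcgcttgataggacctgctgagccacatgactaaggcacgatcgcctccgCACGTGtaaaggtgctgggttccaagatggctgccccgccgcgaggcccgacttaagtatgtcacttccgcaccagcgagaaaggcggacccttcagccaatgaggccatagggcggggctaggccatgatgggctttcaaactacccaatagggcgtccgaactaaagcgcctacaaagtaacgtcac
Eif4a2: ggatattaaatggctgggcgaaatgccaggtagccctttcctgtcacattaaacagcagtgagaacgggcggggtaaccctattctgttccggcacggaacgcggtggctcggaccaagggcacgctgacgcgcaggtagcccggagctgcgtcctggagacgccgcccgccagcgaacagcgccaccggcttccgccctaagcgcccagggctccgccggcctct
Eif2s2: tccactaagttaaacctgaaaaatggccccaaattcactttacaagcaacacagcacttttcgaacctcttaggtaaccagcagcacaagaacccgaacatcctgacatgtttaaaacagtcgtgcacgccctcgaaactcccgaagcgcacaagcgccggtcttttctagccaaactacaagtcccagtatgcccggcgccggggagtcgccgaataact
The Eif4a1 stretch holds CACGTG at 1 place, 183 bases before its end, and the other two hold it at 0. Of the 52 members, 40 had at least 1 entry in the RefSeq promoter table. CACGTG (its own reverse complement) occurred in the 250 bases before a start of 9 of these 40 (22.5%), Eif1b, Eif3f, Eif3k, Eif4a1, Eif4e, Eif4g1, Eif4h, Eif5a and Eif5a2, against 6.86% of 27025 genes in the table and 9.94% of the 9603 of them that were tested here. CCGGAAG, the core that ETS factors bind, occurred on either strand in 13 of 40 (32.5%), against 7.83% and 16.3%, and CCAAT, the box that NF-Y binds, in 13 of 40 (32.5%), against 37.5% and 40.8%. TGATGCAA, a form of the element that ATF4 binds together with C/EBP proteins, occurred on either strand in 0 of 40, against 0.918% and 0.656%; Eif4ebp1 and Eif1a were not among the 40. These matches describe letters in a window and were not compared at equal base composition.

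The 4E-BP genes also moved apart between the cell types. Eif4ebp1 was 8.45-fold higher in iTreg than in nTreg under the WT label (log2 3.08, SE 0.46, edgeR adjusted p = 1.1e-04) and 3.76-fold higher under the KO label (log2 1.91, SE 0.41, edgeR adjusted p = 0.0017). Eif4ebp2 fell from 193, 186 and 221 to 128, 127 and 168 CPM under the WT label (log2 -0.51, SE 0.18, edgeR adjusted p = 0.026), a call that was lost without nTreg WT replicate 3, iTreg WT replicate 1 or iTreg WT replicate 2 (edgeR adjusted p 0.089 to 0.093). Under the KO label it fell by 0.60 (edgeR adjusted p = 0.012), and without the 3 libraries with Xist neither label gave a call (-0.36 and -0.54, edgeR adjusted p = 0.24 and 0.065). Eif4ebp3 was at -0.45 and -0.35 and did not pass. Eif4ebp1 made up 4.84% ± 1.1 of the summed level per kb of the 3 genes in WT-labelled nTreg, 15.5% ± 3.07 in KO-labelled nTreg, 37.0% ± 11.9 in WT-labelled iTreg and 46.7% ± 12.9 in KO-labelled iTreg (SD, n = 3). The cap-binding Eif4e rose from 55.4, 49.1 and 53.5 to 102, 113 and 129 CPM (log2 1.12, SE 0.11, edgeR adjusted p = 2.5e-06) under the WT label. The summed 4E-BP level was 8.05 ± 0.402 times that of Eif4e in WT-labelled and 7.81 ± 0.511 times in KO-labelled nTreg, and 4.12 ± 0.852 and 4.65 ± 1.25 times in iTreg (per kb of exon, SD, n = 3). The sum thus stood lower relative to Eif4e in iTreg, while the share of Eif4ebp1 in it was larger. The sum and the share take in Eif4ebp3, whose counts are uncertain, with 65.5% of its 50-base stretches shared. In WT-labelled nTreg it stood at 32.4 CPM per kb, against 34.6 for Eif4ebp2 and 3.43 for Eif4ebp1. These ratios are of RNA and say nothing of phosphorylation.

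The other members that fell were Eif4g3, Eif2c1 and Eif2c3. Eif4g3, a relative of the scaffold Eif4g1, went from 370, 374 and 375 to 274, 231 and 327 CPM under the WT label (log2 -0.43, SE 0.12, edgeR adjusted p = 0.0090; -0.31 and 0.11 without the libraries with Xist) and did not pass under the KO label (-0.19). Eif4g1 rose by 0.47 and 0.37, and Eif4g2, whose product lacks the site for eIF4E, did not pass (-0.17 and -0.08). The Eif4g1 call under the KO label was lost without nTreg KO replicate 1 or 2 or iTreg KO replicate 3. It was also lost without the libraries with Xist and without both nTreg libraries numbered 2. Eif2c3 (Ago3) fell from 26.6, 38.5 and 33.6 to 13.5, 12.8 and 13.6 CPM under the WT label (log2 -1.30, SE 0.20, edgeR adjusted p = 1.3e-04) and by 1.10 under the KO label. Eif2c1 (Ago1) was called under the KO label, at 148, 159 and 168 against 117, 67.8 and 142 CPM (log2 -0.54, SE 0.21, edgeR adjusted p = 0.037). That call was lost when any of 5 libraries was left out, nTreg KO replicate 1, 2 or 3 and iTreg KO replicate 1 or 2 (edgeR adjusted p 0.054 to 0.098), and without iTreg KO replicate 2, the lowest, the value was -0.29. Under the WT label it was at -0.42 (edgeR adjusted p = 0.094), and was called there by DESeq2 (-0.46, adjusted p = 0.049) and when the compared libraries alone were fitted (-0.46, edgeR adjusted p = 0.0083). The start-site factors Eif1, Eif1b and Eif5 did not pass under either label. Eif5 measured 374, 392 and 372 CPM in WT-labelled nTreg and 335, 352 and 451 CPM in WT-labelled iTreg (log2 0.00, 95% interval -0.26 to 0.26).

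Set per kb of exon, levels spanned a wide range among the members. In WT-labelled nTreg Eif3f was highest at 185 ± 20.8 CPM per kb, followed by Eif5a at 182 ± 13.6 and Eif3h at 170 ± 10.8 (SD, n = 3), which lay within each other's spread. In WT-labelled iTreg Eif5a was highest at 485 ± 70.8, above Eif3h at 277 ± 9.31 and Eif4b at 229 ± 30.1. The 12 eIF3 subunits, which enter the complex in equal number, differed 5.76-fold in WT-labelled nTreg, from Eif3e at 32.1 ± 1.16 to Eif3f, and 7.05-fold in WT-labelled iTreg, from Eif3e at 39.3 ± 2.41 to Eif3h. Low ranks were held by Eif2b3 (2.20 ± 0.161 in WT-labelled nTreg) and Eif4ebp1 (3.43 ± 0.911). Exon lengths were taken over all annotated isoforms, so a gene with long or unused isoforms comes out too low.

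Other genes of translation were taken from lists compiled with earlier results of these data known, which are no independent support. Of 12 tested eIF2 kinases, phosphatase subunits and their regulators, edgeR called 1 in nTreg, where it called 2.53% of all genes (9% with the block), Eif2ak3 (PERK), higher under the KO label by 0.82 (SE 0.15, adjusted p = 0.0087). Of 19 mTORC1 and eIF4E kinase genes it called 0 there, with 3 at an unadjusted p under 0.05 and 0 by DESeq2, and 3 with the block, Sesn2 higher (2.01-fold) and Sesn1 and Sesn3 lower (log2 -0.73 and -0.48), which encode sestrins, inhibitors of mTORC1. Of 20 other initiation and recycling genes it called 0, with 2 at an unadjusted p under 0.05 and 0 by DESeq2, and 2 with the block (Pabpc4 at 0.36 and Gnb2l1 at 0.39), a share near that of all genes. Of 9 genes listed as elongation and release factors it called 1 (3 with the block), Eef2k, the kinase that inhibits eEF2, higher by 1.22 (SE 0.16, adjusted p = 9.7e-04). Of 19 tested genes listed as ATF4 and its targets, Eif4ebp1 among them, 12 were called in nTreg, all higher (16 with the block, all higher), with Atf4 at 1.11 (SE 0.24, edgeR adjusted p = 0.028). In iTreg 1 of the 19 was called, Atf5 at 1.48 (6 with the block, all higher, against 0.673% of all genes). Of the other 4 lists edgeR called 0 there without the block, with 0 to 3 genes each at an unadjusted p under 0.05 and 0 by DESeq2, and with it 1, Sesn2.

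Between the cell types the same lists are given for WT-labelled libraries, where 34.8% of all genes were called higher in iTreg and 30.4% lower. There 8 of the 9 genes listed as elongation and release factors were higher in iTreg and 0 lower. They included Eef1g, a subunit of the complex that recharges eEF1A, by 1.07, and Eef1e1, in the list by its symbol, by 1.17. Of the 20 other initiation and recycling genes 11 were higher, among them the poly(A)-binding Pabpc4 by 1.12 and the recycling factor Denr by 0.83, and 1 was lower (Mcts2 by 1.31, named after its value was seen). Of the eIF2 kinase and phosphatase genes 3 were higher, among them Eif2ak3 by 0.75 and Eif2ak4 (GCN2) by 0.73, and 3 lower, among them Impact, an inhibitor of GCN2 activation, at -0.87 (SE 0.15, edgeR adjusted p = 0.00028). Ppp1r15a, a phosphatase subunit named after its value was seen, went from 578, 234 and 124 to 34.7, 60.2 and 27.8 CPM. In KO-labelled nTreg it was at 671, 238 and 146 CPM, so it fell with the replicate number under both labels. The cause was not tested. Of the 19 mTORC1 and eIF4E kinase genes 5 were higher, among them Rragd at 1.83 and Rheb, an activator of mTORC1, at 0.71. In that list 6 genes were lower, among them Mknk1, a kinase of eIF4E, at -0.67 (SE 0.10, edgeR adjusted p = 0.00011). The share of genes called was below the 65.2% of all genes in this list, in that of the eIF2 kinases and in that of the other initiation and recycling genes. For the 19 genes listed as ATF4 and its targets the counts given are those of DESeq2, not edgeR. It called 15 higher and 1 lower in iTreg, where it called 65.9% of all genes. In KO-labelled libraries it called 8 higher and 3 lower, where it called 62.7% of all genes. Eif4ebp1 was among those called.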

How the data were processed

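RNA was sequenced in 12 libraries, 3 for each of 4 groups. The deposited tables, 1 per library, hold whole-number counts for each gene symbol, not normalised. The submitters' processing notes name cutadapt 1.13, STAR, HTSeq 0.6.1p1, DESeq2 and the build mm10; the gene annotation and strand setting are not given in the sources used here. The test was the robust quasi-likelihood test of edgeR 4.0.16 in R 4.3.3, with TMM normalisation, fitted to all 12 libraries with 1 mean per group and 8 residual degrees of freedom. edgeR's filter (minimum count 10, minimum total 15) kept 12038 genes. Adjusted p is Benjamini-Hochberg over these, two-sided, with a threshold of 0.05. SE was taken from the fold change and the F statistic. The script was tested on simulated data with known changes, and no 2 libraries of a group agreed within sampling noise.

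Deviations from group means correlated between libraries of the same number at 0.438 to 0.572 in nTreg and 0.307 to 0.629 in iTreg, but at -0.054 to 0.095 across cell types. Unlike numbers within a cell type gave -0.421 to -0.054 in nTreg and -0.519 to 0.135 in iTreg, so the separation was weaker in iTreg. Deviations within a group sum to 0, so the values for like and unlike numbers depend on each other. Values below 0 for unlike numbers are therefore no separate support for a pairing. The iTreg pair numbered 2 also differed in Xist (2030 CPM in WT, 0 in KO) and Ddx3y (0 and 79 CPM). The numbers were treated as pairing WT and KO libraries within a cell type, a pairing taken from the data and not the labels. A block nested in cell type (4 residual degrees of freedom) is given beside the KO comparisons. Alternatives included DESeq2 1.42.0 and leaving out libraries. The members and lists were chosen with earlier results of these data known. Values by library are printed for Eif4ebp1, for members passing in a KO comparison or the difference with or without the block, for up to 5 rises and 5 falls per cell type comparison whose mean log2 CPM reached 3, and for up to 4 members of smallest p per KO comparison. Eif4a1, Eif4e and Eif5 were added after their values were seen.

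Coordinates and exon lengths are from GENCODE M21 (mm10), where 47 members matched by symbol and 5 by a RefSeq synonym. Python 3.11.15 with matplotlib 3.10.9 drew the figures.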

Additional observations from a re-analysis of the deposited data

Results flagged for a closer look

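The KO effect on Eif4ebp1 differed between the cell types in the fit with the replicate block, by -1.25 on the log2 scale (iTreg minus nTreg; SE 0.24, edgeR adjusted p = 0.037). In nTreg the KO effect was 1.89 (SE 0.19) and in iTreg 0.64 (SE 0.14) in that fit, and in both cell types the KO-labelled library was higher in 3 of 3 numbered pairs. Without the block the difference was -1.17 (SE 0.61, edgeR adjusted p = 0.75), with a 95% interval of -2.49 to 0.15. The iTreg effect without the block ranged from 0.16 to 1.02 when 1 library was left out.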

How the results depend on the processing

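The count of members called between the labels in nTreg, 2 in the fit as reported, was 4 by DESeq2 (4.12% of all genes), 6 when the 6 compared libraries alone were fitted (10.2%), 6 with the replicate block (9%) and 1 to 2 when each library was left out in turn (1.36% to 1.75%). It was 0 without the 3 libraries with Xist (0.587% of all genes, 5 members at an unadjusted p under 0.05). It was also 0 without both nTreg libraries numbered 2 (0.848% of all genes, 6 members at an unadjusted p under 0.05). Both were fits with 2 libraries per nTreg group, in which fewer genes passed in general. The count for the difference of KO effects, 0 as reported, was 1 with the replicate block and 0 in all other alternatives run. The count in iTreg was 0 in all alternatives run, where 0% to 0.947% of all genes were called. The count between cell types was 34 to 40 (WT label, 48.6% to 67.2% of all genes) and 32 to 41 (KO label, 45.9% to 63.9%), the block there sharing only numbers, not pairs. Of 1258 log2 fold changes of named members under alternatives, 1180 kept direction and side of the threshold, 22 lost the call, 17 gained it and 39 changed sign, none of which was called either way; the cause was not tested. When 1 library was left out, the nTreg KO effect ranged from -0.19 to 0.00 for Eif4a2 and from 0.00 to 0.08 for Eif2a. The iTreg KO effect then ranged from -0.03 to 0.16 for Eif6 and Eif2s1, -0.03 to 0.25 for Eif5a, -0.03 to 0.23 for Eif1ax and Eif4g3, -0.34 to 0.10 for Eif2c3, -0.01 to 0.18 for Eif4a2, -0.21 to 0.17 for Eif4ebp2 and -0.04 to 0.07 for Eif2a. Without the libraries with Xist it was -0.03 for Eif4g3 and -0.04 for Eif2a. The difference of KO effects ranged from -0.29 to 0.01 for Eif3i, -0.20 to 0.06 for Eif1ax, -0.18 to 0.01 for Eif2s1, -0.05 to 0.38 for Eif2c3, -0.27 to 0.10 for Eif4ebp2, -0.08 to 0.04 for Eif2a, -0.37 to 0.12 for Eif2c1 and -0.09 to 0.07 for Eif3g when 1 library was left out. For Eif2a it was 0.01 with RLE size factors, with no filter on low counts and by DESeq2, for Eif3g 0.01, 0.02 and 0.01, and for Eif1ax 0.00 with no filter. The block changed no other call of a named member. A depth of 6763458 to 15462894 counts and 3 libraries per group limit small folds.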
